A study of Mus musculus with 12 samples.

Results

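The question here was whether the lung of mice labelled PPTA knockout answered abdominal sepsis differently from the lung of wild-type mice. All 12 arrays of the series were used, in 4 groups of 3, because the difference in response needs every group: wild type after sham surgery, wild type after cecal ligation and puncture (CLP), and the same surgeries in knockout-labelled mice. Whole lung was taken 8 h after surgery from mice 8 to 10 weeks old; the strain is named as Balb/c for the wild type and not named for the knockout-labelled mice, so strain and genotype cannot be told apart. For each of 45037 non-control probe sets, the sham-to-CLP change in wild type was subtracted from that in knockout-labelled mice, on the scale of log2(signal + 3.47). This value is called the difference in response, and it is above 0 where the knockout-labelled lung rose more or fell less. The 24574 probe sets with a signal above the array median on at least 3 arrays were tested with limma, and they represent 11862 genes at 1 probe set each. A probe set or gene was called at an adjusted p under 0.05. The labels speak of triplicates and not of separate animals, so each p-value rests on the spread within triplicates, which may be technical.

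CLP opens the cecum to the abdomen, and bacteria and their products then reach the lung through the blood. Within hours, sensing cells release cytokines, endothelium and epithelium answer with acute phase genes, and neutrophils arrive from the marrow. PPTA is an older name of Tac1, which encodes the precursor of substance P, a sensory neuropeptide that widens vessels and draws leukocytes.

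The targeted gene went against the genotype label. The first Tac1 probe set read 5.25, 8.34 and 2.8 on arrays 1 to 3 of the wild-type sham group and 16.1, 3.95 and 12.4 after wild-type CLP. It read 379, 441 and 530.3 on the knockout-labelled sham arrays and 442, 337 and 462 on the knockout-labelled CLP arrays. Tac1 signal was therefore high in every library labelled knockout and low in every library labelled wild type. The second Tac1 probe set lay between 1.26 and 15.97 on all 12 arrays and was not tested. Every direction below is that of the labels. The difference in response of Tac1 itself was -0.73 ± 0.46 (SE; adjusted p = 0.372), which was not called.

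Of the 24574 probe sets tested, 995 (4.05%) were called, 416 above 0 (1.69%) and 579 below 0 (2.36%). At the gene level 591 of 11862 were called (4.98%), with 220 above 0 (1.85%) and 371 below 0 (3.13%). Among the 220 genes above 0, the median change after CLP was 1.09 in the knockout-labelled lung and 0.00 in the wild-type lung, and the wild-type change stayed within 0.5 of 0 in 187. Among the 371 genes below 0, the corresponding medians were -1.01 and 0.04, and 347 stayed within 0.5 of 0 in the wild type. Of all 11862 genes tested, 11110 stayed within that range, so a small wild-type change was not particular to called genes. The 3 knockout-labelled CLP arrays lay all above or all below the other 9 for 89.5% of the genes called above 0. The share was 82.5% for genes called below 0 and 21.5% for all genes tested. Nothing is read from these shares, because the genes were called on a contrast that holds the same arrays. The split by direction moved with the scaling: with arrays centred on their medians, 697 probe sets were called above 0 and 352 below. That centring shifted the median difference over all tested probe sets by 0.12, from -0.07 to 0.05. Genes with values just inside the threshold were Idnk and Slpi (both adjusted p = 0.0499), and those just outside were Irak3 (0.0501) and Cyba (0.0503).

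**Figure D1:**
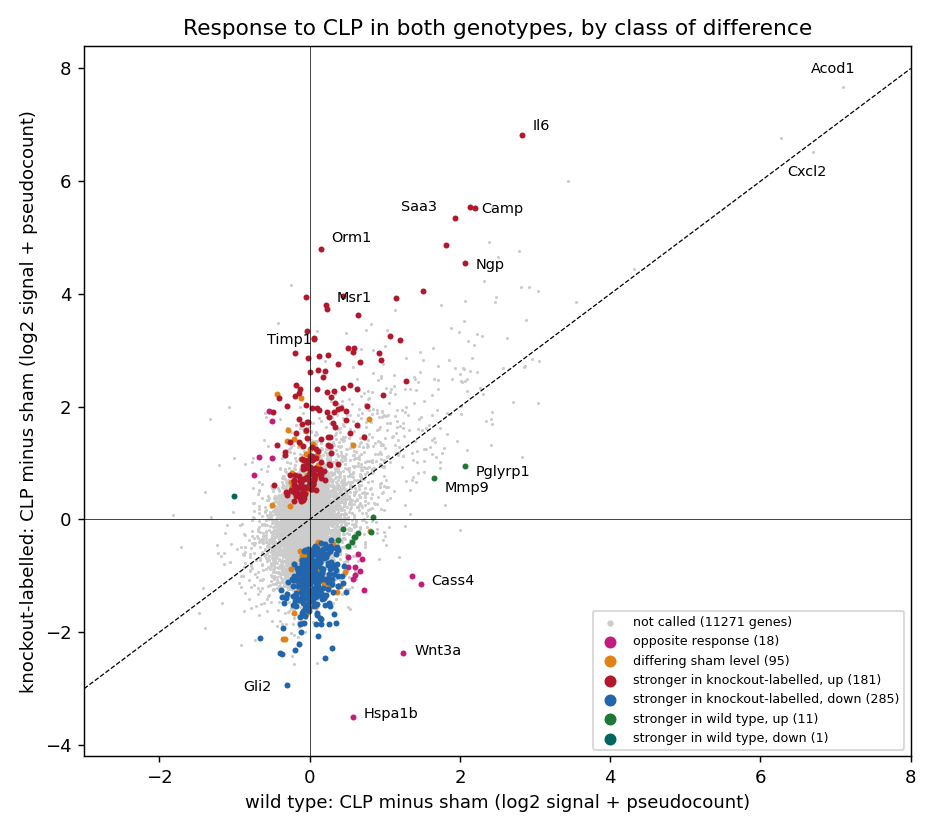
Change after CLP in wild type (horizontal axis) and in knockout-labelled mice (vertical axis) for 11862 genes, both as log2(signal + pseudocount) differences of group means; the dashed line marks equal responses, grey points are genes not called, and colours mark the class of each called gene. Most called genes lie near 0 on the wild-type axis, as do most genes tested, while Acod1 and Cxcl2 lie near the line of equal response.

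From the 4 group means, each called gene was put in 1 class. An opposite response, with both genotypes moving at least 0.5 in opposite directions, was found for 18 genes. A differing sham level, where the genotypes differed more after sham than after CLP, was found for 95. The other genes responded more strongly in the knockout-labelled lung, 181 upwards and 285 downwards, or more strongly in the wild type, 11 upwards and 1 downwards. Of the 18 opposite responses, 17 were called within the knockout-labelled mice and 1, Cass4, within the wild type, against 31.3% and 1.15% of all genes. Opposite signs for the others rest on wild-type changes that were not called. Nothing is read from the shares within each genotype, because the class was sorted on both changes.

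The number of calls depended on single arrays. Leaving out arrays 1, 2 or 3 gave 205, 181 and 174 called probe sets for the wild-type sham group and 237, 107 and 257 for the wild-type CLP group. For the knockout-labelled mice it gave 448, 306 and 3284 for the sham group and 2613, 246 and 776 for the CLP group. The knockout-labelled replicates were also less alike: the median SD over probe sets was 0.23 in both of their groups and 0.13 in both wild-type groups. Of the 591 called genes, 61 kept their call with every single array left out, 30 above 0 and 31 below. They also kept it under every other alternative fit in which they could be tested. A minimum of a 2-fold difference is not counted among these fits, and Myo9b, 1 of the 61, falls short of it. The fewest genes, 66, kept their call without array 2 of wild-type CLP, and all 591 did without array 3 of knockout-labelled sham or array 1 of knockout-labelled CLP. For genes named below, the number of these 12 omissions in which the call held is given; this set of 61 genes was found after values were seen.

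**Figure D2:**
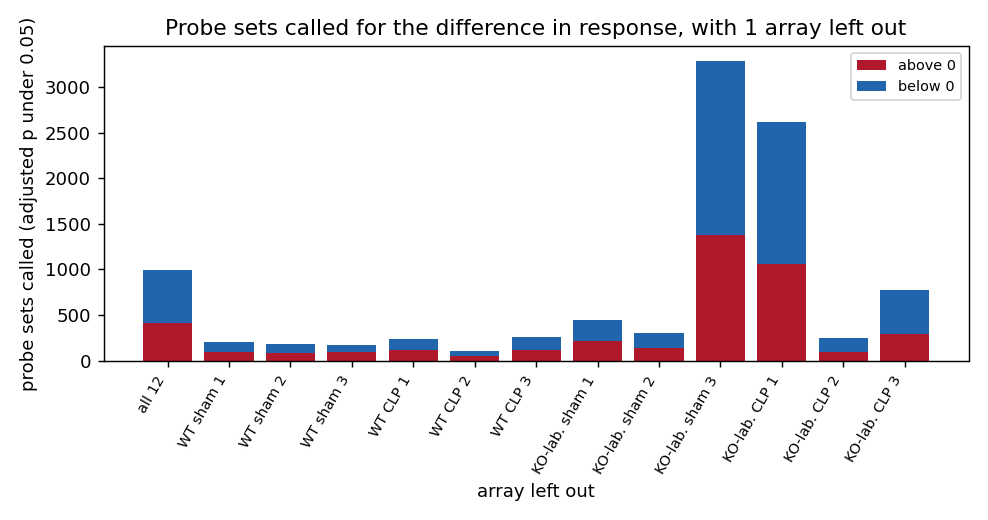
Number of probe sets called for the difference in response (vertical axis, adjusted p under 0.05) with all 12 arrays and with each array left out (horizontal axis), split into those above and below 0. Counts run from 107 without array 2 of wild-type CLP to 3284 without array 3 of knockout-labelled sham.

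Acute phase genes gave the highest share of calls above 0 among the lists with at least 10 genes tested. Of 15, 8 (53.3%) rose more in the knockout-labelled lung than in the wild type and none less, against 1.85% of all genes above 0, and the list's median difference was 1.50 against -0.08 over all genes. Saa3, a serum amyloid A protein made in lung and macrophages, had signals of 84.4, 87.8 and 75.2 after wild-type sham, 466, 223 and 331 after wild-type CLP, 141, 78.6 and 327 after knockout-labelled sham and 4177, 6503 and 9678 after knockout-labelled CLP. The last 3 arrays were above all 9 others, and wild-type CLP arrays lay above wild-type sham arrays too, although the wild-type change was not called (adjusted p = 0.0577). Its difference in response was 3.41 ± 0.61 (SE; adjusted p = 0.0163), a 10.6-fold difference, and the call held in 11 of 12 omissions. Serpina3n, a protease inhibitor, had signals of 120.2, 159 and 137, 212, 154 and 177, 170.3, 129.6 and 379.9 and 1109, 1341 and 1832 in the same group order, and its difference was 2.39 ± 0.44 (SE; adjusted p = 0.0188, 9 of 12). The fibrinogen chain gene Fgg read 7.81, 1.66 and 2.75 after wild-type CLP and 132, 244 and 345 after knockout-labelled CLP, with a difference of 3.15 ± 0.63 (SE; adjusted p = 0.0235); its knockout-labelled sham arrays, at 15.2, 22.7 and 26.9, were already above every wild-type array. Fgg is 1 of 12 genes called above 0, Saa1 and Spic among them, whose signal passed the array median only on knockout-labelled CLP arrays. Such genes passed the filter through the group where they are high, and the sizes of their differences rest on low signals in the other groups. Fgg and Saa1 are among the 8 acute phase calls, so the 53.3% counts genes that were tested only through that group.

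The remaining acute phase calls were Orm1 at 4.65, which held in all 12 omissions, Saa1 at 3.50 (6 of 12), the heme carrier Hpx at 2.31 (2 of 12), the leucine-rich glycoprotein Lrg1 at 1.43 (5 of 12) and the endotoxin carrier Lbp at 1.02 (5 of 12). The Saa1 probe set can also bind related transcripts. Haptoglobin (Hp) did not share the pattern: its signals ran from 3709.7 to 5944 on all 12 arrays, and its difference was 0.09 ± 0.19 (SE; adjusted p = 0.809). With array 2 of wild-type CLP left out, 1 of the 8 calls remained in the list, and without array 1 of knockout-labelled CLP there were 10. Several of these genes are best known from liver. Summed signals of 14 hepatocyte markers were 208 to 339, 273 to 286, 215 to 393 and 376 to 628 in the 4 groups, 9 of the 14 never passed the array median, and the albumin gene Alb lay between 19.2 and 44.2 everywhere. The part of hepatocyte RNA in these results was not tested.

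The interleukin-6 axis showed 2 of 11 tested genes called above 0 (18.2%, against 1.85% of all genes) and none below. The list's median was 0.38. Il6, the cytokine that drives acute phase genes, read 12.9, 15.9 and 9.88 after wild-type sham and 141, 93.1 and 105 after wild-type CLP. It read 32.9, 6.3 and 5.76 after knockout-labelled sham and 466, 3501 and 2869 after knockout-labelled CLP. Array 1 of the last group was far below arrays 2 and 3, and still above all wild-type arrays. The difference was 3.99 ± 0.93 (SE; adjusted p = 0.0354), and the call held in only 3 of 12 omissions, with an adjusted p of 0.103 without array 2 of wild-type CLP. Osmr, the oncostatin M receptor that pairs with gp130, was steadier: signals were 549, 573 and 512, 725, 694 and 625, 712, 678 and 702 and 1874, 2703 and 3605 in the group order used above. Its difference was 1.59 ± 0.25 (SE; adjusted p = 0.0103), and it held in all 12 omissions.

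The stretch before the Il6 start is shown because Il6 had the largest called difference above 0 with a promoter sequence in RefSeq (assembly GRCm38.p6, chr5:30012864-30013113, plus strand, 250 bases ending at the base before the start). Capitals mark matches to a C/EBP motif (TTGCNNAA, here on the opposite strand) and an NF-kappaB motif, factors that act downstream of cytokine and endotoxin receptors.
Il6: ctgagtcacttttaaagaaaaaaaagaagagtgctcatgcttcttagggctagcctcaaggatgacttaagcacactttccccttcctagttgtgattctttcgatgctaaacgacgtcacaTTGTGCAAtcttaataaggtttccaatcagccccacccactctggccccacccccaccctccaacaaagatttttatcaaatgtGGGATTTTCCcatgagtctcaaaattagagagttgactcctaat
Either strand was searched in all promoter windows of this length. The C/EBP motif was present in 8.51% of 235 windows of genes called above 0, 6.20% of 371 windows of genes called below and 7.87% of 12304 windows of all genes tested. For the NF-kappaB motif the shares were 2.55%, 1.62% and 1.43%, and for a STAT motif (TTCNNNGAA) 9.36%, 5.12% and 5.81%. These matches describe letters, not binding.

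Interleukin-1 signalling gave 3 calls above 0 among 17 tested genes (17.6%, against 1.85% of all genes) and a median of 0.81. Il1rn, the natural antagonist of the interleukin-1 receptor, read 297, 231 and 253 after wild-type CLP and 1060.4, 3466 and 5109 after knockout-labelled CLP, from 34.8 to 103 on the 6 sham arrays. Its difference was 3.32 ± 0.68 (SE; adjusted p = 0.0254, 3 of 12). Both other calls were the adaptor Myd88 at 1.21 and the receptor subunit Il1rap at 1.76, in 3 and 2 of 12 omissions. All 3 calls were lost without array 2 of wild-type CLP, where the list had 0 called. Among Toll-like receptor and endotoxin sensing genes, 3 of 24 (12.5%, against 1.85% of all genes) were called above 0. Called below 0 was 1 (4.17%, against 3.13% of all genes), the flagellin receptor Tlr5 at -1.35. The scavenger receptor Msr1, which takes up lipopolysaccharide and modified lipoproteins, read 34.3, 22.1 and 29.7, 37.5, 29.3 and 34.0 and 29.2, 26.5 and 49.96 in the first 3 groups and 309, 479.9 and 925 after knockout-labelled CLP. Only the last group left the range of the others. The difference was 3.58 ± 0.48 (SE; adjusted p = 0.00617) and held in all 12 omissions.

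Chemokine genes were followed as neutrophil-attracting chemokines and as CC and CX3C chemokines with their receptors. None of 7 neutrophil-attracting chemokines was called by limma (4.98% of all genes were), and 2 had an unadjusted p under 0.05. Cxcl1 was the highest at 1.98. The list also holds Cxcl12, the lowest at -0.75, and the platelet marker Pf4 at 0.68. The list's median was 0.10. Leaving out array 3 of knockout-labelled sham turned that median to -0.18. Leaving out array 2 of knockout-labelled CLP gave -0.08, and leaving out array 1 of the same group gave 0.39 with 2 called above 0. Cxcl2, the neutrophil attractant, read 7381, 7709 and 7230.1 after wild-type CLP and 3517, 6947 and 6948 after knockout-labelled CLP. Its signal was lower on every knockout-labelled CLP array than on any wild-type CLP array. Its difference was -0.19 with a 95% interval of -1.60 to 1.22, which is wide enough to hold a 2-fold change either way. Acod1, which makes itaconate in activated macrophages, showed the largest average response to CLP among genes not called, and its difference was 0.57 with an interval of -0.90 to 2.03. CC and CX3C chemokines and their receptors had a median of 1.05 and 1 call among 18, above 0. That share was 5.56%, against 1.85% of all genes above 0 and 4.98% in either direction. Of the 18, 16 lay above 0 and 9 had an unadjusted p under 0.05 by limma. The difference between both chemokine lists was not tested. The call was Ccl17, a ligand of Ccr4 made by dendritic cells, at 57.6, 62.6 and 63.4, 54.3, 55.4 and 71.6, 61.2, 47.9 and 30.2 and 241, 381 and 452 in the 4 groups. Its signal left the range of the other 9 arrays only after knockout-labelled CLP, with a difference of 2.88 ± 0.36 (SE; adjusted p = 0.00456, all 12 omissions). Ccl2, the monocyte attractant, had a difference of 2.54 (adjusted p = 0.0557) and was not called; without array 3 of knockout-labelled sham, or without array 1 of knockout-labelled CLP, 7 members of its list were. The chemokine-binding receptor Ackr1 of venular endothelium and red cells read 26.6, 33.0 and 27.4 after wild-type CLP and 158, 417 and 612 after knockout-labelled CLP, and its difference was 3.37 ± 0.53 (SE; adjusted p = 0.0106, all 12 omissions).

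Of 6 tested granulocyte precursor genes, 3 (50%, against 1.85% of all genes) were called above 0 and the median was 1.81. Ngp, a neutrophil granule protein, read 448, 563 and 739.6 after wild-type sham and 2497, 2051 and 2717 after wild-type CLP. In the knockout-labelled lung it read 261, 405 and 336 after sham and 6656, 8046 and 8699.5 after CLP. It rose in both genotypes, with all CLP arrays above all sham arrays, and the rise was larger in the knockout-labelled mice by 2.48 ± 0.27 (SE; adjusted p = 0.00209, all 12 omissions). Camp, the cathelicidin precursor, followed at 3.40 ± 0.52 (SE; adjusted p = 0.0103, all 12) and Ltf, lactoferrin, at 2.03 ± 0.47 (SE; adjusted p = 0.0351, 5 of 12). In bulk lung, more or fewer cells of a type and more or less RNA per cell cannot be told apart. Among 12 mature neutrophil genes 1 was called above 0, Lrg1, and 1 below (8.33% each, against 1.85% and 3.13% of all genes). Their median was -0.12. It turned to 0.26 without array 3 of knockout-labelled sham and to 0.17 without array 1 of knockout-labelled CLP. With arrays centred on their medians it was 0.00. In the knockout-labelled sham group, arrays 1 to 3 had summed signals of 11693, 15856 and 28226 for mature neutrophil markers and 2637, 3183 and 8663 for precursor markers, so array 3 stood above arrays 1 and 2 in both sums. Not every precursor gene followed its sum: Ngp, at 261, 405 and 336 on these arrays, was not highest on array 3. The precursor list also shares the members Chi3l3 and Ear2 with the alveolar macrophage list. Without array 3 of knockout-labelled sham 5 of the 6 precursor genes were called above 0 and the median was 2.03. The difference between the mature neutrophil and precursor lists was not tested.

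The call below 0 among neutrophil genes was Mmp9, the gelatinase of neutrophil granules, with signals of 168, 157 and 179, 501, 561 and 548, 166, 196 and 189 and 354, 318 and 262 in the 4 groups. It rose in both genotypes and more in the wild type, by -0.91 ± 0.18 (SE; adjusted p = 0.0234, 5 of 12). The peptidoglycan-binding protein Pglyrp1, also a granule protein, behaved alike at 101, 99.5 and 79.0, 443, 394 and 369.5, 106, 133 and 125 and 208, 292 and 222. Its wild-type CLP arrays were the highest of all 12, and the difference was -1.11 ± 0.22 (SE; adjusted p = 0.0239, 6 of 12). Of the 11 genes with a stronger rise in the wild type, Myo9b, an unconventional myosin, kept its call in all 12 omissions. It read 409, 425 and 408 after wild-type CLP and 231, 197 and 191 after knockout-labelled CLP, and its difference was -0.98 ± 0.15 (SE; adjusted p = 0.0108). Leaving out array 2 of wild-type CLP raised the adjusted p to 0.0766 for Mmp9 and 0.0713 for Pglyrp1.

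Besides these lists, genes that kept their call throughout included Timp1, an inhibitor of matrix metalloproteinases. Its signals were 80.9, 82.9 and 78.7, 103, 85.4 and 102 and 115, 93.0 and 88.1 in the first 3 groups and 660.3, 620.2 and 1083 after knockout-labelled CLP, a difference of 2.67 ± 0.27 (SE; adjusted p = 0.0017). Fas, the death receptor, read 608, 684 and 659.9, 667, 603 and 847, 412, 448 and 395 and 1395, 1905 and 1708. Its knockout-labelled sham arrays were the lowest of all and its knockout-labelled CLP arrays the highest, with a difference of 1.87 ± 0.19 (SE; adjusted p = 0.00176). The interleukin-4 receptor chain Il4ra (1.55), the ATP-hydrolysing ectoenzyme Entpd1 (2.07), adenosine deaminase Ada (2.02), the sphingosine kinase Sphk1 (2.35), the macrophage transcription factor Spic (3.15) and the signalling scaffold Bcar3 (1.75) were in the same set. The Spic probe set may cross-hybridise.

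Of 11 genes for metallothioneins and zinc or iron handling, 4 (36.4%, against 1.85% of all genes) were called above 0. They were Mt1 at 1.18, the zinc importer Slc39a14 at 1.96, the metalloreductase Steap4 at 1.82 and haem oxygenase Hmox1 at 1.80. Of 17 coagulation genes 3 (17.6%, against 1.85% of all genes) were called above 0. These were factor X (F10) at 3.16, tissue plasminogen activator (Plat) at 2.22 and thrombospondin Thbs1 at 2.45. Plat held in 11 of 12 omissions and both others in 3. Of 19 antioxidant and Nrf2 target genes, 3 (15.8%, against 1.85% of all genes) were called above 0: Sod2, Hmox1 and the cystine importer Slc7a11. Called below 0 was 1 (5.26%, against 3.13% of all genes), and the list's median was 0.08. Mitochondrial superoxide dismutase Sod2, at 847, 864 and 929, 1171, 982 and 1183, 888, 901 and 964 and 2431, 4489.6 and 5223, stood apart after knockout-labelled CLP with a difference of 1.73 ± 0.29 (SE; adjusted p = 0.0142, 11 of 12). The catalase gene Cat went the other way at -0.71. With array 2 of wild-type CLP left out, no metallothionein-list, coagulation or antioxidant gene was called.

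**Figure D3:**
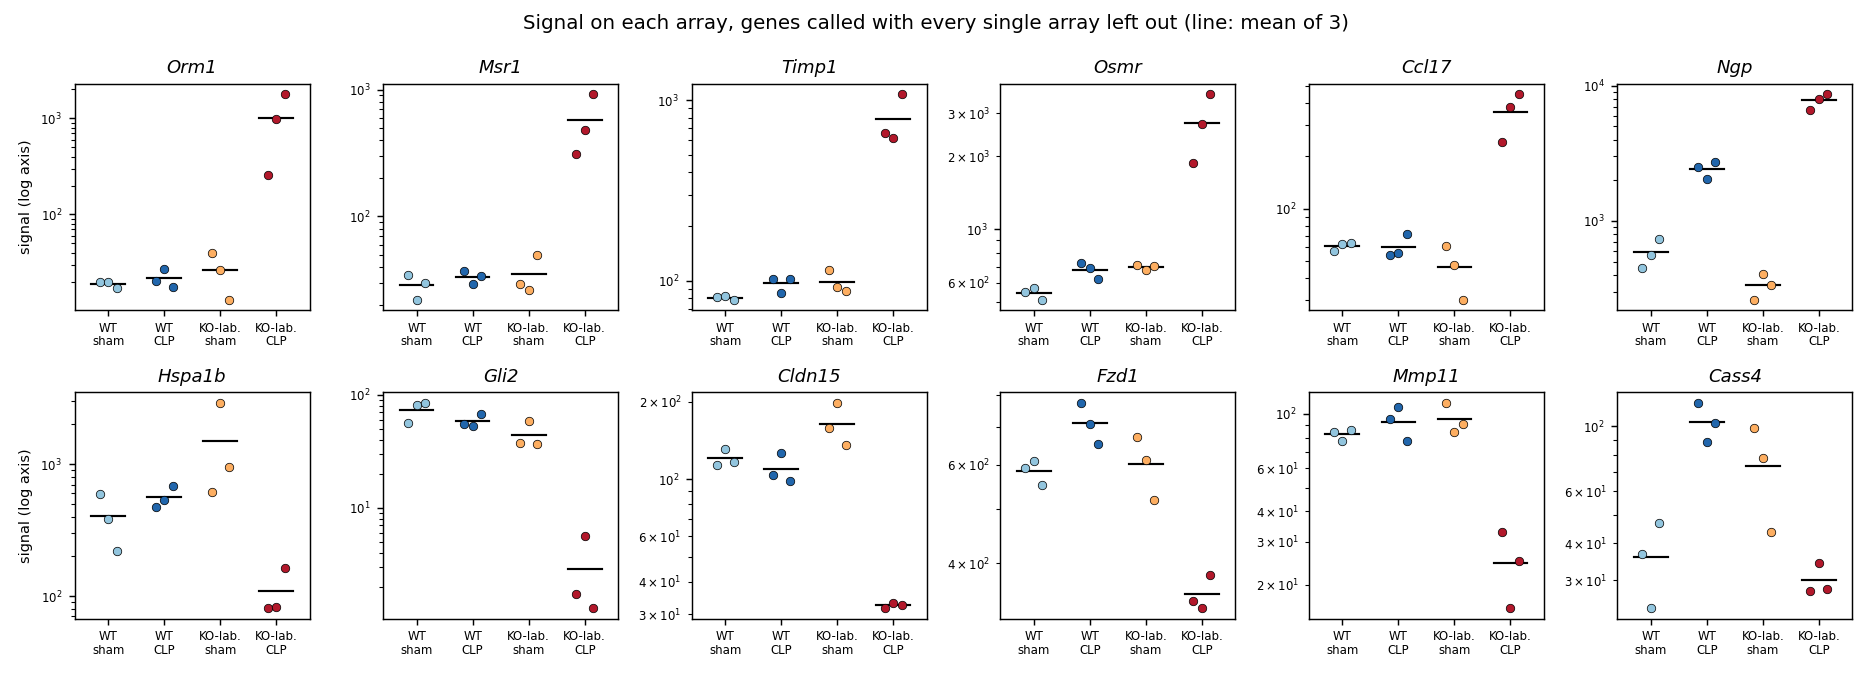
Signal of 12 genes on every array (log axis), by group, with a line at each group mean of 3; each gene kept its call with every single array left out. After knockout-labelled CLP the top row and the bottom row leave the level of knockout-labelled sham in opposite directions, upwards for Orm1 to Ngp and downwards for Hspa1b to Cass4.

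The list with the most calls below 0 was the hedgehog and Wnt pathway, which patterns the lung and maintains its mesenchyme and vessels. Of 28 genes tested, 8 (28.6%) were called below 0 and none above, against 3.13% of all genes below 0, and the median was -0.80. Gli2, the main activating transcription factor of hedgehog signals, read 56.0, 80.4 and 84.9, 54.5, 53.1 and 67.5 and 37.6, 58.7 and 36.5 in the first 3 groups and 1.73, 5.63 and 1.29 after knockout-labelled CLP. The last 3 values are far below the array medians, so the size of the fall is set in part by the pseudocount. The difference was -2.63 ± 0.42 (SE; adjusted p = 0.0108, all 12 omissions). The Wnt receptor Fzd1 fell less steeply but as evenly, at 775, 712 and 655 after wild-type CLP, 673, 613 and 519.6 after knockout-labelled sham and 342, 332 and 382 after knockout-labelled CLP, with a difference of -1.05 ± 0.16 (SE; adjusted p = 0.0103, all 12).

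Other hedgehog members called were the ligand Shh at -1.02, its receptor Ptch1 at -0.95, the signal transducer Smo at -1.05 and the co-receptors Gas1 at -1.97 and Cdon at -0.88. They held in 2 to 4 of 12 omissions. All 5 fell in the knockout-labelled mice, and none was called in the wild type. Gas1, for example, read 429.9, 491 and 569 after wild-type CLP, 409.8, 845 and 582 after knockout-labelled sham and 197, 114 and 60.6 after knockout-labelled CLP. Wnt3a, a Wnt ligand, was classed as an opposite response at 15.4, 9.05 and 65.4, 74.7, 45.9 and 52.9, 123, 122 and 142 and 37.2, 9.98 and 26.4; the wild-type sham arrays ranged widely, and its wild-type rise was not called. With arrays centred on their medians, 5 of the 28 genes were called. Omitting single arrays gave 2 calls in the lowest case, reached among others without array 2 of wild-type CLP, 12 without array 3 of knockout-labelled sham and 14 without array 1 of knockout-labelled CLP.

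Heat shock genes included the largest difference below 0. Hspa1b, an inducible HSP70 chaperone, read 598, 387 and 219 after wild-type sham and 472, 529.9 and 681 after wild-type CLP. It read 619, 2921 and 954 after knockout-labelled sham and 80.6, 82.9 and 163 after knockout-labelled CLP. The knockout-labelled sham arrays were higher than all wild-type sham arrays and the knockout-labelled CLP arrays lower than all others. The difference was -4.08 ± 0.70 (SE; adjusted p = 0.0143) and held in all 12 omissions. Its near-identical neighbour Hspa1a was called at -2.66 ± 0.60 (SE; adjusted p = 0.0321, 5 of 12), and the probe sets may bind both transcripts. These were the only 2 of 20 heat shock genes called (10%, against 3.13% of all genes below 0), and the list's median was -0.36. Without array 3 of knockout-labelled sham 7 were called.

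The Hspa1b promoter is shown as that of the gene with the largest difference below 0 (GRCm38.p6, chr17:34959239-34959488, minus strand, 250 bases ending at the base before the start). Capitals mark a match to a heat shock element (GAANNTTC), which heat shock factor reads.
Hspa1b: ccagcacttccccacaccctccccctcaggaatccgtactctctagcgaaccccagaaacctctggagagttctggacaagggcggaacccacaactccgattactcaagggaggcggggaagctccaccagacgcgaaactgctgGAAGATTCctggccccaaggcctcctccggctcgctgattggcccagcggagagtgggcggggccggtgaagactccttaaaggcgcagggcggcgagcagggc
This motif was present in 5.96% of windows of genes called above 0, 4.85% of those below and 4.83% of those of all genes tested.

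Further genes that fell in the knockout-labelled lung and kept their call throughout were the tight junction gene Cldn15 and the long non-coding RNA gene Dleu2. Cldn15 read 114, 131 and 117, 104, 127 and 98.3 and 158, 198 and 136 in the first 3 groups and 31.6, 33.0 and 32.6 after knockout-labelled CLP, a narrow range below every other array. Its difference was -2.07 ± 0.23 (SE; adjusted p = 0.00209) and that of Dleu2 -2.00 ± 0.20 (SE; adjusted p = 0.0017). The vein-specifying nuclear receptor Nr2f2 read 420.4, 419 and 344 after wild-type CLP and 167, 160.3 and 149 after knockout-labelled CLP, and the endothelial protocadherin Pcdh12 read 162, 107 and 116 and 59.9, 57.2 and 56.3. Their differences were -1.33 and -1.60. The matrix metalloproteinase Mmp11 (-2.01), the growth factor Tgfb3 (-1.34), the endothelial and blood transcription cofactor Lmo2 (-1.02) and the alcohol and retinol dehydrogenase Adh1 (-1.75) were in the same set. Of 22 genes of the angiopoietin and VEGF system 3 (13.6%, against 3.13% of all genes) were called below 0, Vegfc, Vegfb and the co-receptor Nrp1. With single arrays left out, 0 to 6 were called below 0, and without array 3 of knockout-labelled sham 6 were called below and 3 above. Among 20 lung endothelium markers 1 was called, above 0 (5%, against 1.85% of all genes), with a median of -0.16. For Nrp1 the signals were 2883, 3132 and 2982 after wild-type CLP and 1684, 1269.7 and 982 after knockout-labelled CLP (-1.05, 6 of 12).

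**Figure D4:**
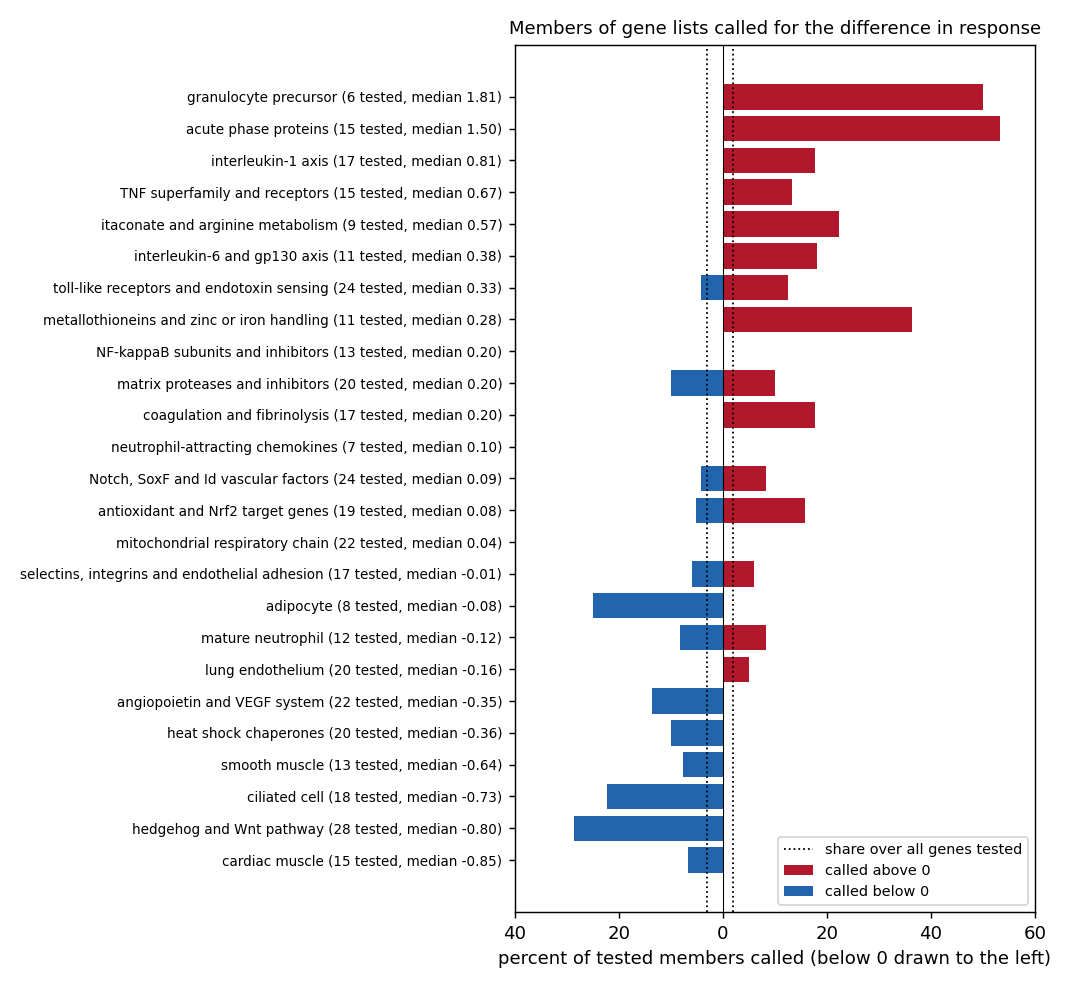
Percent of tested members called above 0 (red, to the right) and below 0 (blue, to the left) for gene lists with at least 2 calls and 6 further lists, with the number tested and the median difference beside each name; dotted lines mark 1.85% and 3.13%, the shares over all genes. Acute phase proteins reach 53.3% above 0, hedgehog and Wnt genes 28.6% below, and neutrophil-attracting chemokines 0. The 53.3% counts Fgg and Saa1, which passed the filter only through knockout-labelled CLP arrays.

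Opposite responses were few. Hspa1b, given above, was classed among them, and its wild-type rise was not called. Cass4, an adaptor of the Cas family, rose in the wild type from 36.9, 24.1 and 46.8 to 120.2, 88.1 and 103 and fell in the knockout-labelled mice from 98.4, 78.2 and 43.7 to 27.6, 34.3 and 27.9. Both changes were called (adjusted p = 0.0317 and 0.0109), and within each genotype the arrays of the surgeries did not overlap. The difference was -2.61 ± 0.40 (SE; adjusted p = 0.0103, all 12 omissions). Hacd4, a fatty acid dehydratase, read 296, 257 and 278, 454, 408 and 411, 291, 302 and 251 and 173, 189 and 115; its fall was called and its wild-type change was not (adjusted p = 0.145). The difference of Hacd4 was -1.45 ± 0.23 (SE; adjusted p = 0.0114, all 12). In the other direction, with a knockout-labelled rise, were 5 genes, among them the interferon-induced GTPase Mx1 at 2.25, the DNA-sensing adaptor Sting1 at 1.60 and the chemokine receptor Cxcr6 at 1.52, in 2, 4 and 2 of 12 omissions.

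A differing sham level accounted for 95 called genes. The sham difference itself was called in 76 (8.71% of all genes tested were), a share from which nothing is read because the class was sorted on that difference. In 62 the knockout-labelled sham lung was higher and in 33 lower. Semaphorin Sema7a, the lipoprotein receptor Scarb1 and Tmem243 kept their call in all 12 omissions. Sema7a read 1202, 1198 and 1221 and 1190.4, 1132 and 1319 in the wild type, 689.6, 722 and 699 after knockout-labelled sham and 1451, 1777 and 1847 after knockout-labelled CLP. It started lower and ended higher than the wild type, with genotype differences of -0.78 after sham and 0.47 after CLP. Scarb1 did the same, at -0.69 and 0.61. Fkbp5, a glucocorticoid-induced co-chaperone, read 198, 314 and 440.4 after knockout-labelled sham and 795, 714 and 783 after CLP, against 479, 696 and 677 and 527, 530.2 and 623 in the wild type. Its sham difference was -1.01 (adjusted p = 0.0173) and its CLP difference 0.45 (adjusted p = 0.159).

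Of 18 ciliated cell markers, 4 (22.2%) were called below 0, against 3.13% of all genes, and none above, with a median of -0.73. All 4 were higher after knockout-labelled sham than after wild-type sham. Ccdc39, which sets the spacing of ciliary dynein arms, read 123, 122 and 107 and 109, 131 and 133 in the wild type, 310.1, 275 and 171 after knockout-labelled sham and 116, 66.6 and 72.0 after knockout-labelled CLP. Arrays 1 and 2 of knockout-labelled sham were higher than array 3. The difference was -1.61 ± 0.33 (SE; adjusted p = 0.0254), that of the radial spoke gene Rsph4a -1.73, that of Tekt4 -1.45 and that of the dynein chain Dnali1 -1.35. Foxj1, the master transcription factor of motile cilia, was not called at -0.52 ± 0.40 (SE; adjusted p = 0.47). The list had 0 called without array 2 of wild-type CLP and 12 called without array 3 of knockout-labelled sham. Summed signals of the 20 markers on the array were 4321 to 4741, 3969 to 4700, 4186 to 7296 and 3152 to 4330 in the 4 groups.

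**Figure D5:**
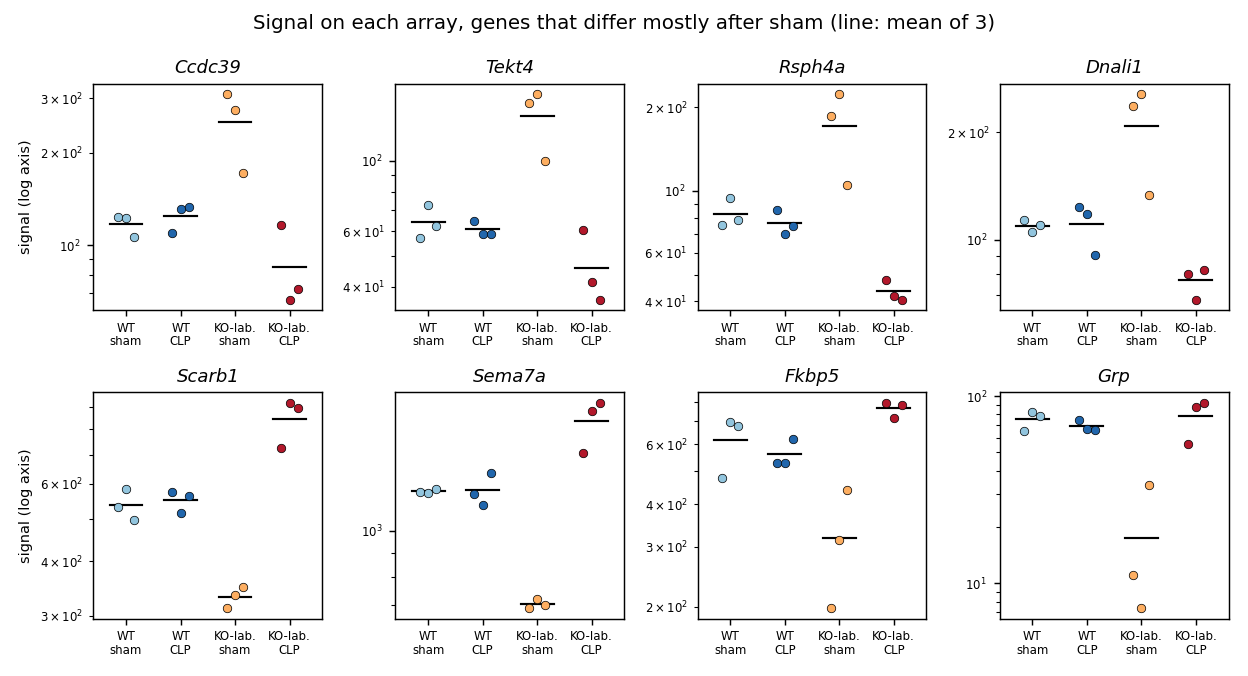
Signal of 8 genes on every array (log axis), by group, with a line at each group mean of 3. In the top row the knockout-labelled sham arrays are the high ones, and in the bottom row they are the low ones, while wild-type sham and CLP arrays overlap.

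Marker levels of other cell types also differed between arrays. Cardiac muscle genes summed to 4551 to 5253 after wild-type sham, 4390 to 5232 after wild-type CLP, 11259 to 17806 after knockout-labelled sham and 5135 to 8948 after knockout-labelled CLP. Cardiac actin Actc1 was the 1 call among 15 tested cardiac genes (6.67%, against 3.13% of all genes below 0). The shift was not limited to that gene: the list's median was -0.85, none of the 15 lay above 0, and 11 had an unadjusted p under 0.05 by limma. Actc1 read 2813, 3675 and 2342 after knockout-labelled sham and 449.9, 438 and 486 after wild-type CLP, with a difference of -1.03. The 3 knockout-labelled sham arrays were the highest of all 12 in the cardiac sum. Of 8 tested adipocyte genes, Car3 (-2.10) and Adipoq (-1.55) were called below 0 (25%, against 3.13% of all genes). Of the 8, 4 lay above 0, and the list's median was -0.08. Sums of alveolar macrophage markers lay between 11587 and 12100 in both wild-type groups, and after knockout-labelled CLP they lay between 19461 and 21047. On arrays 1 to 3 of knockout-labelled sham they were 11327, 11827 and 20307, so array 3 stood apart at the level of the CLP arrays. None of 14 was called by limma (4.98% of all genes were), 6 had an unadjusted p under 0.05, and the median was 0.71. Without array 3 of knockout-labelled sham 9 were called above 0 and the median was 1.02. The 3'/5' signal ratio of the beta-actin control probe sets, a sign of RNA quality, was 1.28 to 1.45 after knockout-labelled CLP and 1.47 to 1.63 on the other 9 arrays. That of the Gapdh control did not set this group apart: it was 0.800 to 0.832, 0.857 to 0.913, 0.729 to 0.799 and 0.678 to 0.843 in the 4 groups, and wild-type CLP was the group above all others. The part of tissue composition and RNA quality in the differences above was not tested.

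Of 10 tested genes of the tachykinin and CGRP system, 1 was called (10.0%, against 4.98% of all genes), and 3 lay above 0, with a median of -0.43. The called gene Ramp3, an accessory protein of adrenomedullin receptors, read 119.9, 211 and 146, 222, 253 and 248, 123, 98.9 and 111 and 325, 754 and 723, with a difference of 1.68 ± 0.39 (SE; adjusted p = 0.0365, 2 of 12). Its partner receptor Calcrl was not called, at -1.15 ± 0.33 (SE; adjusted p = 0.0694), and fell within the knockout-labelled mice, where its signals were 3154, 3115 and 5508 after sham and 2373, 1212 and 1397 after CLP. The tachykinin receptor genes Tacr1, Tacr2 and Tacr3 were never above the array median.

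Among called genes with further probe sets, 439 of 511 of those (85.9%) had the same sign and 102 were called, each with the same sign. Over all genes tested, 3.40% of such further probe sets were called.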

How the data were processed

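Total RNA from whole lung was labelled with biotin and hybridised to an Affymetrix 3-prime array, 1 sample per array, with 3 arrays in each of 4 groups taken from the labels. The deposited table holds 1 signal intensity on a linear scale for each probe set. The software of the authors is named as GCOS, MAS5 and Affymetrix Expression Console per the submitters' processing notes, with roles and order not given in the sources used here. After trimming the lowest and highest 2%, the mean signal was 150.001 on every array, and array medians ran from 31.1 to 38.6; the number of arrays limits the precision.

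Of 45101 probe sets, 64 controls were left out. Signals were used as log2(signal + 3.47), the pseudocount being 10% of the median array median, so differences of weakly expressed genes are understated. limma 3.58.1 in R 4.3.3 fitted 4 group means with an intensity trend, and the contrast (knockout-labelled CLP minus sham) minus (wild-type CLP minus sham) was tested two-sided, with Benjamini-Hochberg adjustment over all 24574 probe sets tested. Errors beside differences are standard errors of that model. The platform annotation gives 34945 probe sets 1 symbol, 932 several and 9160 none, and 34741 matched a RefSeq gene table (GRCm38.p6). A gene is represented by its tested probe set with the highest mean. The steps were tested on simulated data.

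The contrast, the 60 gene lists and the genes were chosen with earlier results of these data known. Genes named are the largest differences in each direction and class, called members of lists, genes called in both responses, shared responses not called, and the tachykinin system; the other genes were chosen after their values were seen. Replicate numbers did not pair the samples (correlations of deviations -0.10 to 0.12 over 18 same-number pairs). Alternatives covered the normalisation, pseudocount, filter, moderation, array and group weights, replicate block, probe set types, class limits and each array left out.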

Additional observations from a re-analysis of the deposited data

Results flagged for a closer look

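The contrast itself is a difference between genotypes in the same response, and 995 probe sets passed its test, an interaction term in limma. The largest called difference above 0 was Orm1, which encodes the acute phase protein orosomucoid, at 4.65 ± 0.77 (SE) on the log2 scale; all 3 knockout-labelled CLP arrays were above the other 9. The largest below 0 was Hspa1b at -4.08 ± 0.70 (SE), where all 3 knockout-labelled CLP arrays were below the other 9. Both directions are those of the genotype labels, which the Tac1 signal goes against. Groups of 3 are too small for a search for single outlying samples.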

How the results depend on the processing

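No called gene that the rule named changed sign under any alternative, whereas Clec4e, Cxcl2, Hdc, Kit and Mme, which were not called, did under some. Counts moved widely. With single arrays left out, called probe sets ran from 107 to 3284, those above 0 from 56 to 1381 and those below from 51 to 1903. By class the ranges in probe sets were 5 to 90 for opposite responses, 8 to 765 for differing sham levels, 48 to 1040 and 41 to 1317 for stronger knockout-labelled rises and falls, and 3 to 53 and 0 to 19 for stronger wild-type rises and falls. With all arrays these classes held 31, 162, 345, 433, 21 and 3 probe sets.

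Centring arrays on their medians gave 697 above and 352 below, with 553 and 263 stronger knockout-labelled rises and falls and 1 stronger wild-type fall. Array weights called 5834 (2266 above, 3568 below), in classes of 88, 1287, 1676, 2527, 144 and 112 in the same order. Without the filter on low signals 557 were called (252 above, 305 below), with 69 differing sham levels, 206 and 234 stronger knockout-labelled rises and falls and 9 stronger wild-type rises. Asking for at least a 2-fold difference left 571 (224 above, 347 below), with 84 differing sham levels, 190 and 256 stronger knockout-labelled rises and falls and 8 stronger wild-type rises. Opposite responses numbered 15 with a pseudocount of 50% of the median, 19 with a filter of 9 arrays, 154 with a limit of 0.25 in place of 0.5 and 5 with a limit of 1; the limit of 0.25 left 11 stronger wild-type rises and 1 fall. The cause of these shifts was not tested, except that the filter and the limits change which probe sets can count.

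Fitting the replicate number as a block called 886, 371 above and 515 below, and 779 of them were among the 995; the numbers do not pair the samples. The array weights themselves ran from 0.193 for array 3 of knockout-labelled sham to 1.96 for array 2 of knockout-labelled CLP. With 3 arrays a group, a difference that was not called may still be large, as the intervals of Cxcl2 and Acod1 show. Probe sets near background carry differences that the pseudocount bounds.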

Other observations

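Genes induced by type I interferon, which signal viral or bacterial nucleic acid, had differences above 0 in 18 of 18 tested, from 0.07 for Ifit2 to 2.25 for Mx1, with a median of 0.67. Mx1 was the 1 gene called (5.56%, against 1.85% of all genes above 0), and its signal passed the array median only on knockout-labelled CLP arrays. Their summed signals were 4099, 7092 and 14913 on arrays 1 to 3 of knockout-labelled CLP, 3463 to 5220 after knockout-labelled sham and 2774 to 3327 on the 6 wild-type arrays, so array 1 overlapped the sham range. With single arrays left out, 0 to 7 of the 18 were called.

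Genes of the mitochondrial respiratory chain moved little: the 22 tested lay between -0.16 and 0.19 with a median of 0.04. None was called by limma (4.98% of all genes were), and 0 had an unadjusted p under 0.05. Colony-stimulating factors and their receptors had a median of 0.76 over 10 genes, up to 3.11 for Csf3, the granulocyte factor, with none called by limma and 6 at an unadjusted p under 0.05. Without array 3 of knockout-labelled sham 4 were called above 0, and without array 1 of knockout-labelled CLP 5 were. By chromosome, the share of tested genes called ran from 3.22% on chromosome 14 to 6.53% on chromosome 9.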
